A study of Rattus norvegicus with 12 samples.

Results

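The genes described here encode the proteasome and its regulators: the subunits of the 20S core and the 19S cap, the proteins that assemble them, the activators and inhibitor that bind the core, and the subunits of the immunoproteasome. They were chosen by symbol, as every gene of the count table whose name begins with Psm, a letter from a to g and a number. The rule found 45 of 17268 genes, of which 30 are constitutive subunits of the 26S particle. Psmb8 and Psmb9, which belong to the immunoproteasome, were set apart. Psma3, Psmb10, Psmb11, Psmd9, Psmd10 and Psme3 were not analysed here.

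RNA was sequenced from the cerebral cortex of adult male Sprague Dawley rats in 4 groups of 3 libraries. Sham rats were operated on without injection of a clot, whereas in the Model group a blood clot was placed in the middle cerebral artery to give an embolic stroke. The rt-PA group had the same stroke and an intravenous thrombolytic (recombinant tissue plasminogen activator) at 6 h, and the rt-PA+Acu group also had Xingnaokaiqiao acupuncture at Shuigou (GV26) and Neiguan (PC6) at 2 h. The hour at which the sequenced cortex was taken was not given in the sources used here, and none of the groups analysed here had acupuncture alone.

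The proteasome degrades proteins that carry a ubiquitin chain. Its 20S core is a barrel of alpha rings, which gate the entrance, around beta rings, in which Psmb5, Psmb6 and Psmb7 cut the substrate protein. Its 19S cap uses an ATPase ring to unfold the substrate and non-ATPase subunits to bind ubiquitin and remove it. Interferon signalling induces Psmb8 and Psmb9, which replace Psmb5 and Psmb6 in newly made cores and alter the peptides offered to major histocompatibility complex class I molecules.

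Library totals ran from 11678450 to 13616935 counts, and values are given as CPM, counts relative to the library's total after scaling by edgeR's TMM factors. Of the 45 genes, 43 passed edgeR's filter on low counts in each comparison, and Psma8 and the pseudogene Psme1-ps1, with at most 12 counts in any library, did not. A gene is called where edgeR's quasi-likelihood test on the 6 libraries of a comparison gave a Benjamini-Hochberg adjusted p under 0.05 over all genes tested. Errors of fold changes are standard errors, and errors of levels are SD over 3 libraries. The p-values measure the spread between libraries, 1 for each labelled sample. The proteasome genes took 0.328% to 0.344% of all counts in Sham, 0.476% to 0.496% in Model, 0.466% to 0.517% in rt-PA, and 0.350%, 0.361% and 0.439% in rt-PA+Acu replicates 1, 2 and 3. Replicate 3 of rt-PA+Acu therefore stood apart from the other libraries of its group. Model replicate 3 stood apart elsewhere: Rpl39, a ribosomal protein gene, had 142 counts there, 105 to 151 in the Sham libraries and 488 to 990 in the 8 remaining libraries with a stroke. Results are given without either library where the count changes.

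The tissue label was checked against marker genes. Neuronal transcripts summed to 7368 to 8082 CPM in Sham, 6387 to 6463 in Model, 5090 to 6271 in rt-PA libraries and 6155 to 8778 where acupuncture was added. Of these 9 genes, 2 were called higher and 4 lower in Model vs Sham, and 4 were called higher and 0 lower in rt-PA+Acu against rt-PA. Markers of infiltrating monocytes and neutrophils summed to 66.5 to 87.4 CPM in Sham, 226 to 337 in Model, 309 to 582 in rt-PA libraries and 64.5 to 117 with acupuncture, with Mpo at 0 in every library. Of the 8 tested in Model vs Sham 5 were called higher, and of the 9 tested in rt-PA+Acu against rt-PA 7 were called lower. Endothelial markers summed to 136 to 177 CPM in Sham, 205 to 396 in Model, 270 to 393 in rt-PA libraries and 86.5 to 96.1 with acupuncture. Of the 5 endothelial markers tested, 1 was called higher and 0 lower in Model vs Sham, and 5 were called lower in rt-PA+Acu against rt-PA. Kdr alone went from a mean of 16.4 CPM in Sham to 117 in Model, while Tek went from 49.2 to 34.2. Oligodendrocyte markers ranged from 1672 to 21100 CPM. Of 6 astrocyte markers 5 were called lower and 1 higher in Model vs Sham, and 5 higher with acupuncture than with rt-PA alone. Homeostatic microglia markers summed to 511 to 629 CPM in Sham and 384 to 464 in the 9 stroke libraries. The 8 markers shared by microglia and macrophages went both ways. In Model vs Sham 5 were called higher and 2 lower, and in rt-PA+Acu against rt-PA 1 was called higher and 4 lower. Cd68, for example, rose from a mean of 0.593 CPM in Sham to 3.79 in Model, while Ctss went from 428 to 205. Several of these sums differed between groups, while the oligodendrocyte sum also spread widely within groups. The part of such differences in the results that follow was not tested. In bulk tissue, fewer cells of a type and less RNA per cell cannot be told apart.

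Model vs Sham asked what the stroke did to these genes. Most of the proteasome rose together by a moderate amount: 33 of the 43 genes tested were called higher (76.7%) and 0 lower, against 27.3% of all 12884 genes called higher and 26.6% lower. The median log2 fold change was 0.49 over the 43 genes and 0.01 over all genes tested. In 34 of the 43 every Model library lay above every Sham library, which was so for 32.2% of all genes. The changes were mostly under 2-fold: under the study's second threshold, a fold change over 2, Psmd5 alone remained, where 9.43% of all genes did. Of the 30 constitutive 26S subunits, 27 rose. The call held for 27 of the 33 genes under each of 13 other settings, and between 28 and 32 genes were called when any 1 library was left out (32 without Model replicate 3).

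Summed over the 30 constitutive subunits, the level was 3168 ± 91.5 CPM in Sham, 4418 ± 171 in Model, 4308 ± 163 under rt-PA and 3528 ± 240 under rt-PA+Acu. Model stood at 1.39 times Sham, rt-PA at 1.36 times and rt-PA+Acu at 1.11 times. The rt-PA+Acu libraries lay at 3323, 3468 and 3792 CPM, all above the highest Sham library (3263) and below the lowest rt-PA library (4127). The median subunit lay 0.51 to 0.58 above Sham on the log2 scale in the Model libraries and 0.46 to 0.53 in the rt-PA libraries. In rt-PA+Acu it lay 0.05, 0.13 and 0.30 above Sham in replicates 1, 2 and 3.

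**Figure D1:**
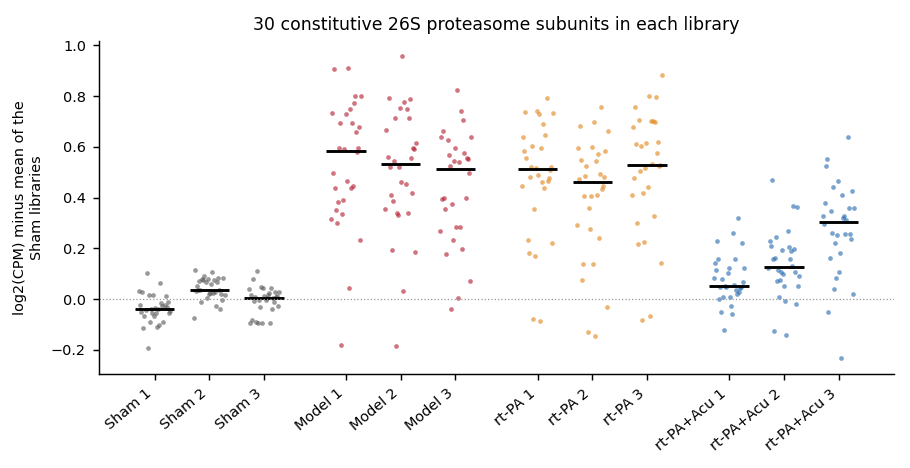
Each point is 1 of the 30 constitutive 26S subunits in 1 library, as log2 CPM minus that subunit's mean over the Sham libraries, and the bar is the median of the 30 subunits. Model and rt-PA medians lie between 0.46 and 0.58, and rt-PA+Acu replicate 3, at 0.30, lies between those and the other rt-PA+Acu libraries.

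The alpha ring of the 20S core, which forms the outer gate, rose as a whole in Model vs Sham, with all 6 measured members called and log2 fold changes from 0.32 (Psma1) to 0.80 (Psma5). Psma5 was at 56.3, 57.3 and 52.2 CPM in the Sham libraries and at 104, 95.6 and 87.4 CPM in the Model libraries. The groups did not overlap, and the log2 fold change was 0.80 ± 0.10 (edgeR adjusted p = 0.000303). Psma2, another alpha subunit, was at 65, 71.6 and 61.9 CPM in Sham and at 110, 105 and 103 CPM in Model, again with no overlap, and rose by 0.68 ± 0.09 (edgeR adjusted p = 0.00041).

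In the beta ring 6 of 7 subunits rose, and the exception was Psmb5, the subunit with chymotrypsin-like activity. Of the 6, Psmb1 had the least stable call, kept in 6 of 13 other settings and in 1 of the 6 fits with a library left out. Psmb5 was at 77.9, 88.5 and 82.9 CPM in Sham and at 73.3, 73.0 and 80.9 CPM in Model, and the groups overlapped. Its log2 fold change was -0.13 ± 0.09 (edgeR adjusted p = 0.26). Psmb6, the subunit with caspase-like activity, was at 66.5, 71.6 and 67.0 CPM in Sham and at 86.3, 86.5 and 88.6 CPM in Model. These groups did not overlap, and the log2 fold change was 0.36 ± 0.08 (edgeR adjusted p = 0.00585). Psmb7, the subunit with trypsin-like activity, was at 136, 141 and 145 CPM in Sham and at 184, 177 and 165 CPM in Model, and rose by 0.33 ± 0.08 on the log2 scale (edgeR adjusted p = 0.0104). The largest rise in the ring was that of Psmb4, a subunit without catalytic activity, from 109, 114 and 101 CPM in Sham to 174, 177 and 155 CPM in Model (log2 fold change 0.65 ± 0.09, edgeR adjusted p = 0.000598).

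The promoters of Psmb5 and Psmb6 are shown because these catalytic subunits, 1 of which rose and 1 of which was not called, share a sequence: the core of the antioxidant response element (TGACNNNGC, searched on both strands), which NFE2 family factors such as Nfe2l1 and Nfe2l2 bind. Each run is from RefSeq, build GRCr8, 250 bases before to 10 bases after the annotated start of the gene, 5′ to 3′ on the strand of the gene, with the match in capitals. The window of Psmb5 is chr15:32047370-32047629 on the minus strand and that of Psmb6 chr10:55737638-55737897 on the plus strand.
Psmb5: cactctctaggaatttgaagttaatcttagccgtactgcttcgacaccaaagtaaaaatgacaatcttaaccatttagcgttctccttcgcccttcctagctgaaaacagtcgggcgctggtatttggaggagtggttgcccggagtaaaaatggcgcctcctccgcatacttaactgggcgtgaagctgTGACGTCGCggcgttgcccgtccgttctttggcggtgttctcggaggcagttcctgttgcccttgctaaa
Psmb6: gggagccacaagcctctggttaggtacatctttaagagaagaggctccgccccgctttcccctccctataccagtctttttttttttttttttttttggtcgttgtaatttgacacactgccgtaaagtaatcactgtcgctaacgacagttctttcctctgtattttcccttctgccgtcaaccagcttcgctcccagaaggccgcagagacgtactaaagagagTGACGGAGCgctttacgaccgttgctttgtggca
The match begins 60 bases before the start of Psmb5 and 24 bases before that of Psmb6. RefSeq promoters of equal length, 250 bases before to 50 after the start, were matched by symbol for 40 of the 45 genes. The core stood in 6 of the 40 (Psmb2, Psmb5, Psmb6, Psmd1, Psmd3 and Psme4, or 15%) and in 12.2% of all 27457 promoters. Among the 26 constitutive subunits with a promoter, the median change in Model vs Sham was 0.40 (log2) for the 5 with the core and 0.57 for the 21 without it. A match to these letters is a description and not a site of binding. The heat shock element (GAANNTTC) stood in 3 of the 40 promoters and in 8.34% of all, and the CCAAT box in 19 of the 40 (47.5%) and in 37.7% of all.

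The ATPase ring of the 19S cap, which unfolds the substrate, held the gene with the smallest adjusted p of the group. Psmc4 was at 75.0, 81.3 and 77.7 CPM in Sham and at 147, 152 and 138 CPM in Model. The groups were far apart, and the log2 fold change was 0.90 ± 0.08 (edgeR adjusted p = 8.04e-05). Psmc1, Psmc2, Psmc3 and Psmc6 rose by 0.41 to 0.70. Psmc5, the ATPase also known as Rpt6, was not called. It was at 195, 226 and 211 CPM in Sham and at 217, 215 and 211 CPM in Model, with a log2 fold change of 0.03 ± 0.08 (edgeR adjusted p = 0.763). Psmc5 and the non-ATPase subunit Psmd7 were singled out after their values were seen.

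Of the 11 non-ATPase subunits of the cap, 10 rose, and their median log2 fold change was 0.59. Psmd13, a structural subunit of the lid, was at 84.3, 90.1 and 83.6 CPM in Sham and at 147, 141 and 140 CPM in Model. It rose by 0.74 ± 0.08 (edgeR adjusted p = 0.000173), Psmd11, also of the lid, by 0.73 ± 0.08, and Psmd14, the deubiquitinase that removes the ubiquitin chain, by 0.73 ± 0.10. Psmd4, a ubiquitin receptor, rose by 0.59 ± 0.08. Psmd7, the inactive partner of Psmd14, went from 113 ± 5.67 to 126 ± 7.14 CPM with overlapping groups (log2 fold change 0.17 ± 0.09, edgeR adjusted p = 0.126), and it was called with library size alone in place of TMM (edgeR adjusted p = 0.035).

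Psmd5, a chaperone that holds part of the ATPase ring during assembly of the cap and is not in the finished particle, had the largest change of the 43 genes. It was at 33.1, 25.3 and 29.9 CPM in Sham and at 67.0, 66.5 and 59.2 CPM in Model. No Model library came near the Sham range, and the log2 fold change was 1.13 ± 0.12, or 2.19-fold (edgeR adjusted p = 0.000178). Of the 4 chaperones that assemble the core, Psmg2 alone was called (log2 fold change 0.58 ± 0.15, edgeR adjusted p = 0.0124). Psmg1 (0.12 ± 0.15) and Psmg3 (-0.12 ± 0.28) were not. Psmg4 was at 0.483, 0.764 and 0.873 CPM in Sham and at 0.763, 1.44 and 1.07 CPM in Model, overlapping values that rest on 6 to 17 counts (0.62 ± 0.46, edgeR adjusted p = 0.281). Psmc3ip, a recombination factor, and Psme3ip1 match the rule by name alone. Psmc3ip was at 4.98 to 6.80 CPM in Sham and 4.05 to 6.11 in Model, Psme3ip1 at 25.8 to 29.3 and 28.4 to 35.9, and neither was called in any comparison.

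Psme1 and Psme2 encode the interferon-inducible 11S activator, which opens the core without ubiquitin or ATP. Psme1 was at 24.5, 29.4 and 25.1 CPM in Sham and at 35.0, 40.8 and 37.1 CPM in Model, with no overlap, and rose by 0.52 ± 0.12 (edgeR adjusted p = 0.00607). Psme2 was at 11.3, 11.3 and 9.69 CPM in Sham and at 16.0, 17.2 and 12.1 CPM in Model, and its log2 fold change was 0.49 ± 0.18 (edgeR adjusted p = 0.0488). Psme4, a single-chain activator of the nucleus, was at 125, 122 and 116 CPM in Sham and at 129, 127 and 169 CPM in Model, and its difference of 0.24 ± 0.12 was not called although the groups did not overlap (edgeR adjusted p = 0.134). Psmf1, an inhibitor of the core, was at 24.5, 27.4 and 24.2 CPM in Sham and at 35.0, 31.6 and 28.8 CPM in Model (log2 fold change 0.33 ± 0.12, edgeR adjusted p = 0.0468). The calls of Psme2 and Psmf1 are the weakest of the group: each was lost in 9 of 13 other settings, where edgeR or DESeq2 adjusted p reached 0.158 and 0.139. Among these 9 were the fits without any 1 of Sham replicates 1 to 3 or Model replicates 1 and 2. Psme1-ps1, by its name a pseudogene of Psme1, had 0 to 12 counts, and reads that could not be told apart between them were not tested.

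**Figure D2:**
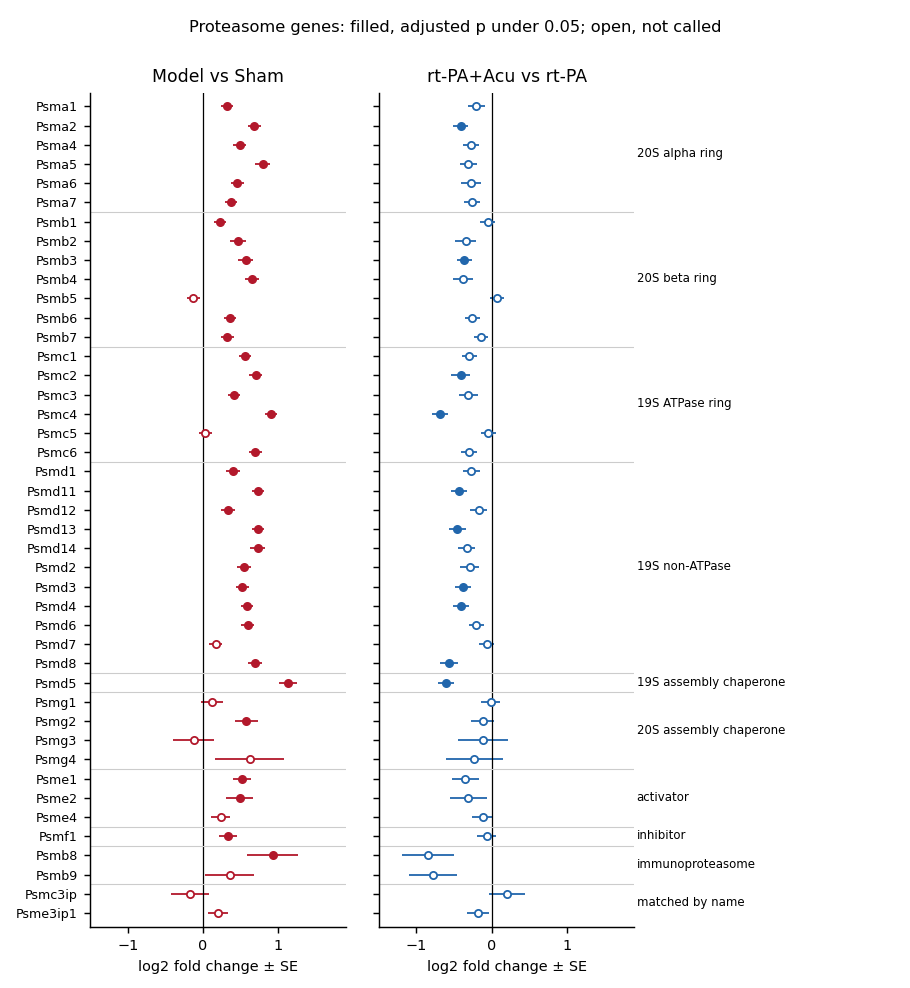
Log2 fold change (horizontal axis) with its standard error for the 43 genes tested, grouped by role, in Model vs Sham (left) and rt-PA+Acu vs rt-PA (right). Filled points were called at an adjusted p under 0.05: 33 genes, all to the right of 0, on the left, and 10 genes, all to the left of 0, on the right, while Psmb5, Psmc5 and Psmd7 lie close to 0 in both.

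The immunoproteasome subunits had few reads, 22 to 183 counts in any library. Psmb8, which takes the place of Psmb5, was at 3.22, 5.58 and 2.18 CPM in Sham, 5.96, 7.54 and 7.52 in Model, 12.7, 9.56 and 6.79 under rt-PA and 3.46, 5.24 and 7.39 under rt-PA+Acu. Every Model and rt-PA library lay above the Sham range, and of the rt-PA+Acu libraries replicate 3 alone did. Against Sham, Psmb8 rose by 0.93 ± 0.34 in Model (edgeR adjusted p = 0.0454) and by 1.37 ± 0.37 under rt-PA (edgeR adjusted p = 0.0148). The Model vs Sham call was lost without any 1 of Sham replicates 1 and 3 and Model replicates 1 to 3, where adjusted p reached 0.133, and the rt-PA vs Sham call without Sham replicate 1 (edgeR adjusted p = 0.0532).

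Psmb9, which takes the place of Psmb6, was at 1.85, 3.29 and 2.18 CPM in Sham, 2.6, 2.96 and 3.80 in Model, 5.97, 5.53 and 4.65 under rt-PA and 3.46, 1.92 and 3.96 under rt-PA+Acu. The rt-PA libraries alone lay above all others. Replicate 1 of rt-PA had the highest Psmb8 and the highest Psmb9 of the 12 libraries. Among the markers of infiltrating cells, Lyz2 was at 291.9, 108.7 and 100.7 CPM in rt-PA replicates 1, 2 and 3. Itgam, of the same list, was at 101.7, 126.5 and 90.13 CPM. A link between these markers and Psmb8 or Psmb9 was not tested. Psmb9 was called in rt-PA vs Sham (log2 fold change 1.11 ± 0.28, edgeR adjusted p = 0.0111) and not in Model vs Sham (0.35 ± 0.33, edgeR adjusted p = 0.39). The difference between rt-PA and Model itself, 0.79 ± 0.26, was not called (edgeR adjusted p = 0.393). With acupuncture added to rt-PA the log2 fold changes were -0.85 ± 0.34 for Psmb8 and -0.78 ± 0.32 for Psmb9, and neither was called (edgeR adjusted p = 0.0913 and 0.0919). Without rt-PA+Acu replicate 3 that of Psmb8 was -1.15 and was called (edgeR adjusted p = 0.0361). Markers of T and NK cells, which make interferon gamma, summed to at most 5.55 CPM in any library, and Ifng had 0 counts in all 12, which allows up to 0.257 CPM before TMM scaling in the shallowest.

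**Figure D3:**
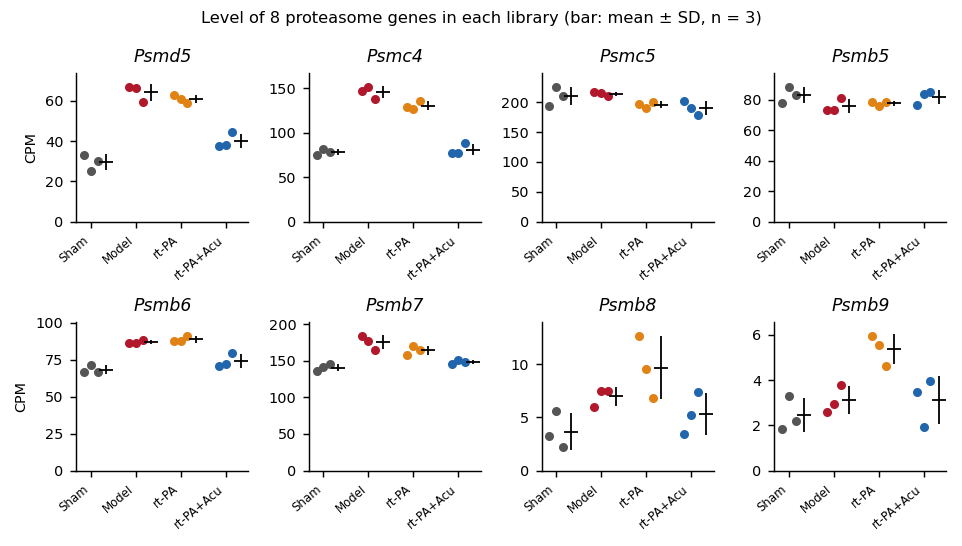
CPM of 8 proteasome genes in each of the 12 libraries (points) with the mean and SD of each group (bars, n = 3), each axis starting at 0. Psmd5 and Psmc4 are high in the Model and rt-PA libraries, Psmc5 and Psmb5 show no such step, and Psmb9 reaches 4.65 to 5.97 CPM in rt-PA and at most 3.96 CPM elsewhere.

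The promoters of Psmb8 and Psme2 are shown as 2 of the genes of this group that interferon is known to induce. They come from the same source and window as above, with matches to the core of the interferon-stimulated response element (GAAANNGAA) in capitals. The window of Psmb8 is chr20:4657022-4657281 and that of Psme2 chr15:33052742-33053001, both on the minus strand.
Psmb8: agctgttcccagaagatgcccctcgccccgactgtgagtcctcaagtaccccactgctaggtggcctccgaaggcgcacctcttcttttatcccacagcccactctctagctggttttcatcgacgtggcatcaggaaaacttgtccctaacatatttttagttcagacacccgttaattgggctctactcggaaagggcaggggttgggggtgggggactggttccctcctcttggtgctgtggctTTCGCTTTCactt
Psme2: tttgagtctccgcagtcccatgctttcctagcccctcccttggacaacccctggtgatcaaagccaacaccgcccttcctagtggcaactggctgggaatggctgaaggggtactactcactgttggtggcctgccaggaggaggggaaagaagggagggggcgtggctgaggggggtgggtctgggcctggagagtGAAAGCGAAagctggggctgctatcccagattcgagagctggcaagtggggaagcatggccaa
In Psmb8 the match lies on the opposite strand, reaching across the start from 3 bases before it, and in Psme2 it begins 53 bases before the start. The core stood in 8 of the 40 promoters (20%: Psma4, Psmb2, Psmb3, Psmb8, Psmd7, Psmd11, Psme2 and Psmg4) and in 9.5% of all promoters. The promoters of Psmb9 and Psme1, which interferon also induces, were searched and held no match to it. A gamma-activated site (TTCNNNGAA) stood in 4 of the 40 (10%), Psmb8 among them, and in 8.68% of all. In the RefSeq gene order of GRCr8, Tap2, Psmb8, Tap1 and Psmb9 follow each other, so the pair of immunoproteasome genes sits among those of the peptide transporter.

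Ratios within a library need no library size and show where the subunits of 1 particle moved unequally. With 3 libraries against 3 an exact two-sided permutation test cannot give a p below 0.1. Relative to the mean of the Sham libraries, the log2 ratio of Psmc5 to Psmc4 was -0.87 ± 0.05 in Model, -0.84 ± 0.02 under rt-PA and -0.19 ± 0.20 under rt-PA+Acu (SD, n = 3). This pair was chosen after the values of both genes were seen, so the ratio is a description without a test. In rt-PA+Acu the libraries lay at -0.03, -0.13 and -0.42. The log2 ratio of Psmb6 to Psmb5 was 0.48 ± 0.06 in Model, 0.47 ± 0.04 under rt-PA and 0.14 ± 0.06 under rt-PA+Acu, each without overlap with Sham. This pair was not among the ratios planned, and Psmb5 was the only beta subunit not called in Model vs Sham. Its ratio is likewise a description without a test. The ratio of Psmb8 to Psmb5 was higher than Sham by 1.17 ± 0.17 in Model, 1.56 ± 0.45 under rt-PA and 0.61 ± 0.47 under rt-PA+Acu, the last overlapping Sham (exact permutation p = 0.3). The ratio of Psmb9 to Psmb6 stood at 0.03 ± 0.26 in Model (exact permutation p = 0.9), 0.80 ± 0.22 in rt-PA (exact permutation p = 0.1) and 0.21 ± 0.51 in rt-PA+Acu (exact permutation p = 0.6).

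**Figure D4:**
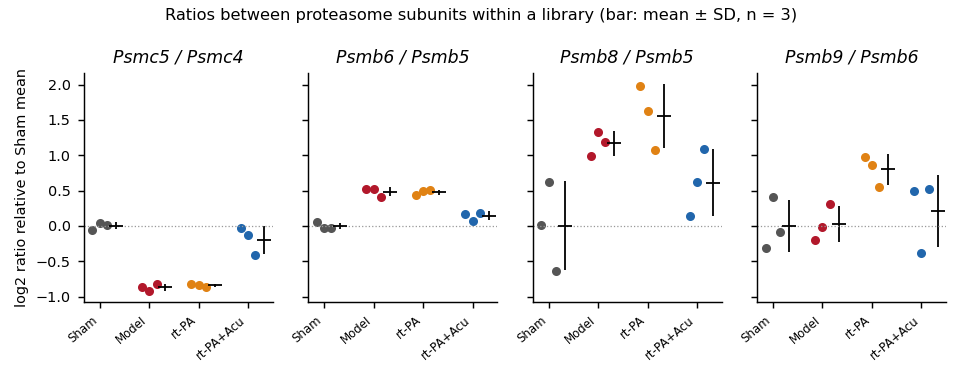
Log2 ratio of 4 pairs of subunits within each library (points), relative to the mean of the Sham libraries, with mean and SD (bars, n = 3). Psmc5 over Psmc4 lies near -0.87 in Model and -0.84 in rt-PA with little spread, and the ratios with Psmb8 or Psmb9, which rest on 22 to 183 counts, spread far more.

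rt-PA vs Model asked what thrombolysis at 6 h added to the stroke. With edgeR 0 of the 43 genes were called, as was 0% of all 12941 genes tested, and DESeq2 also called 0 of the 43, though 164 of all genes. At an unadjusted p under 0.05, 1 of the 43 passed. The median log2 fold change was -0.04, and 41 of the 43 genes, all but Psmb8 and Psmb9, lay between -0.19 and 0.25. In 7 genes the rt-PA libraries all lay below the Model libraries (16.3%, against 8.06% of all genes). Psmc4 was 1 of them, at 129, 126 and 136 CPM in rt-PA (log2 fold change -0.16 ± 0.09, edgeR adjusted p = 0.606). The widest differences upward were those of the immunoproteasome genes given above.

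rt-PA vs Sham, which shares the Sham libraries with Model vs Sham, gave 31 genes higher and 0 lower. Called higher were 72.1% of the 43 and 27.4% of all 13023 genes, of which 3557 were called lower. Over 2-fold were Psmd5, Psmb8 and Psmb9, where 11% of all genes were. Of the 30 constitutive subunits 25 rose. Psmd5 was at 63.0, 61.1 and 58.9 CPM in rt-PA (log2 fold change 1.03 ± 0.11, edgeR adjusted p = 0.00021), clear of the Sham range. Psme4, not called in Model vs Sham, was called here (0.42 ± 0.10, edgeR adjusted p = 0.00836), and the difference between these comparisons is the uncalled rt-PA vs Model difference of 0.21 ± 0.14. With library size alone in place of TMM the median of all genes in this comparison moved from 0.00 to 0.15, 62.2% in place of 50.1% of calls were higher, and 35 of the 43 genes were called.

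rt-PA+Acu vs rt-PA asked what acupuncture at 2 h added to thrombolysis. Of the 43 genes 10 were called lower (23.3%) and 0 higher, against 17.7% of all 12999 genes called lower and 2216 called higher. None passed the 2-fold threshold, where 1061 of all genes were lower and 932 higher. The rt-PA+Acu libraries all lay below the rt-PA libraries in 25 genes (58.1%, against 26.7% of all genes), and the median log2 fold change was -0.29 over the 43 genes and 0.00 over all. The 10 genes were Psma2 of the alpha ring, Psmb3 of the beta ring, the ATPases Psmc2 and Psmc4, the non-ATPase subunits Psmd3, Psmd4, Psmd8, Psmd11 and Psmd13, and the chaperone Psmd5. The count turned on single libraries: 22 genes were called without rt-PA+Acu replicate 3, 8 without rt-PA replicate 2, 4 without rt-PA replicate 1, and 3 without any 1 of rt-PA replicate 3 and rt-PA+Acu replicates 1 and 2. The count over all genes, in either direction, moved as well. It was 4522 in the main fit, 5417 without rt-PA+Acu replicate 3 and 3954 without rt-PA replicate 2. Without rt-PA replicates 1 and 3 it was 2694 and 2958, and without rt-PA+Acu replicates 1 and 2 it was 2850 and 2496. Psmc4, Psmd5 and Psmd8 were called under each of 13 other settings, and 1 fit over all 12 libraries called 22 of the 43 and 5563 of all genes.

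Psmc4 was at 76.6, 77.6 and 88.4 CPM in rt-PA+Acu, against 126 to 136 CPM in rt-PA and 75.0 to 81.3 CPM in Sham. No rt-PA+Acu library came near the rt-PA range, and the log2 fold change was -0.69 ± 0.10 (edgeR adjusted p = 0.00395). Psmd5 was at 37.6, 38.1 and 44.3 CPM in rt-PA+Acu, below the rt-PA and above the Sham libraries (log2 fold change -0.61 ± 0.11, edgeR adjusted p = 0.00717). Psmd8, a subunit of the lid that had risen by 0.69 ± 0.09 in Model vs Sham, was at 83.6, 81.7 and 98.3 CPM in rt-PA+Acu and at 128, 122 and 141 CPM in rt-PA, with no overlap (log2 fold change -0.56 ± 0.12, edgeR adjusted p = 0.011). Psma2 had a log2 fold change of -0.41 ± 0.10 (edgeR adjusted p = 0.0155) and Psmd13 of -0.45 ± 0.12 (edgeR adjusted p = 0.0227), and both calls were lost without rt-PA replicate 3 or rt-PA+Acu replicates 1 or 2, Psmd13's also without rt-PA replicate 1. The 3 constitutive subunits not called in Model vs Sham again lay near 0, with log2 fold changes of 0.08 ± 0.10 for Psmb5, -0.04 ± 0.10 for Psmc5 and -0.06 ± 0.10 for Psmd7. Psmb4, at 109, 117 and 147 CPM in rt-PA+Acu, was lower than in each rt-PA library (155 to 164 CPM) and was not called (-0.38 ± 0.13, edgeR adjusted p = 0.0639). Without rt-PA+Acu replicate 3 it was called (-0.51, edgeR adjusted p = 0.00863).

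Of the activators and the inhibitor none was called in this comparison. Psme1 was at 28, 31.2 and 42.8 CPM in rt-PA+Acu and at 45.8, 39.8 and 44.6 CPM in rt-PA, and replicate 3 of rt-PA+Acu alone reached the rt-PA range (log2 fold change -0.35 ± 0.18, edgeR adjusted p = 0.159). Without that replicate Psme1 was called (-0.54, edgeR adjusted p = 0.0151). Psme2, Psme4 and Psmf1 had log2 fold changes of -0.31 ± 0.25, -0.12 ± 0.14 and -0.07 ± 0.13. The assembly chaperones Psmg1 to Psmg4 lay between -0.23 and -0.01.

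In rt-PA+Acu vs Sham 0 of the 43 genes were called with edgeR, against 1.7% of all 12775 genes called higher and 434 called lower. At an unadjusted p under 0.05, 7 passed, and DESeq2 and the fit over all 12 libraries each called 4. The log2 fold change was above 0 in 39 of the 43 genes, with a median of 0.19 against 0.02 over all genes, and in 18 genes (41.9%, against 15.1% of all genes) every rt-PA+Acu library lay above every Sham library. Without rt-PA+Acu replicate 3 the median was 0.10. The widest among the constitutive subunits was Psmd14, at 77.9, 80.6 and 97.2 CPM against 58.7, 66.2 and 62.7 CPM in Sham (log2 fold change 0.45 ± 0.12, edgeR adjusted p = 0.0679). Psmd5 lay 0.44 ± 0.14 above Sham (edgeR adjusted p = 0.105), and Psmc4 0.05 ± 0.10 (edgeR adjusted p = 0.796).

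In rt-PA+Acu vs Model 16 of the 43 genes were called lower (37.2%, against 16.9% of all genes), 15 of them constitutive subunits. None was called higher, where 2233 of all 12855 genes were. Psmc4 (-0.85 ± 0.11, edgeR adjusted p = 0.00193), Psmd5 (-0.68 ± 0.12), Psmd13 (-0.57 ± 0.11) and Psmd11 (-0.51 ± 0.10) were called under each of 13 other settings. The count fell to 5 without rt-PA+Acu replicate 2, to 6 without Model replicate 2, and to 7 without Model replicate 1 or rt-PA+Acu replicate 1, and stood at 15 without Model replicate 3 and 19 without rt-PA+Acu replicate 3. Over all genes, 4411 were called in either direction in the main fit. Without 1 library that count ran from 2546 (Model replicate 2 left out) to 5257 (rt-PA+Acu replicate 3 left out).

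Model vs Sham and rt-PA+Acu vs rt-PA share no library, so their values can be set side by side. Of the 43 genes, 42 had log2 fold changes of opposite sign in these comparisons (97.7%), against 81.6% of the 12753 genes tested in both. Across the 43 genes Pearson's r was -0.78 and Spearman's rho -0.81, against -0.83 and -0.81 across all genes. These are correlations across genes, which are not independent replicates. Of the 10 genes called in both comparisons, Psmd5 and Psmc4 had the largest changes in each.

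Genes that work beside the proteasome were read in 4 lists, whose median log2 fold changes in Model vs Sham were 0.50 for bound factors, 0.16 for maturation and transcription, 0.35 for ubiquitin and its shuttles and 0.80 for peptide loading and interferon, against 0.01 over all genes. Of 9 other subunits and factors that bind the 26S particle, 6 were called higher and 0 lower in Model vs Sham, where 27.3% of all genes were higher and 26.6% lower. Adrm1, a ubiquitin receptor of the cap, was at 61.1, 61.2 and 55.0 CPM in Sham, 94.8, 81.6 and 90.7 in Model, 99.2, 90.0 and 92.8 under rt-PA and 57.9, 56.7 and 64.9 under rt-PA+Acu. The Model and rt-PA libraries lay above all the Sham and rt-PA+Acu libraries, which overlapped. Adrm1 rose by 0.60 ± 0.10 in Model vs Sham (edgeR adjusted p = 0.00119) and was the only gene of the 9 called when acupuncture was added to rt-PA (-0.65 ± 0.11, edgeR adjusted p = 0.00474), a share below the 17.7% of all genes called lower there. Zfand2a, an arsenite-inducible factor that binds the proteasome, rose by 1.22 ± 0.17 in Model vs Sham (edgeR adjusted p = 0.000547). In rt-PA+Acu it was at 32.2, 33.6 and 152 CPM, with replicates 1 and 2 below and replicate 3 above every other library. The deubiquitinase Usp14 (0.51 ± 0.10) and the adaptor Ecpas (0.50 ± 0.10) also rose in Model vs Sham, and Uchl5 (0.09 ± 0.12) and Ube3c (0.06 ± 0.10) were not called.

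Of 7 genes for maturation of the core and transcription of its subunits, 3 were called higher and 1 lower in Model vs Sham, against 27.3% and 26.6% of all genes, which for a list of this length is a difference of few genes. Nfe2l1, the factor that drives proteasome genes when the proteasome is inhibited, was not called (-0.13 ± 0.08, edgeR adjusted p = 0.181), nor was Pomp, the maturation factor of the core (0.16 ± 0.08, edgeR adjusted p = 0.111). Ngly1, which activates Nfe2l1 by removing sugars, fell by 0.42 on the log2 scale (standard error 0.11, edgeR adjusted p = 0.0141). Nfe2l2, a factor of the oxidative stress response, was at 29.1, 35.5 and 28.4 CPM in Sham, 38.3, 42.5 and 45.3 in Model, 71.5, 57.6 and 54.6 under rt-PA and 32.7, 27.8 and 32.3 under rt-PA+Acu. The rt-PA libraries lay above all others and the rt-PA+Acu libraries with Sham. It rose by 0.44 ± 0.12 in Model vs Sham (edgeR adjusted p = 0.0154) and differed by -0.98 ± 0.14 (log2) between rt-PA+Acu and rt-PA (edgeR adjusted p = 0.00337). The difference between rt-PA and Model, 0.55 ± 0.13, was not called (edgeR adjusted p = 0.325). Akirin2, which brings proteasomes into the nucleus, rose by 0.61 ± 0.09 (edgeR adjusted p = 0.00077) and was lower with acupuncture than with rt-PA alone (-0.46 ± 0.10, edgeR adjusted p = 0.0133). Fbxo7, a ubiquitin ligase subunit that binds Psmf1, was called in the same directions (0.49 ± 0.11 and -0.36 ± 0.11).

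Of 14 genes that make or carry ubiquitin, 8 were called higher and 1 lower in Model vs Sham, against 27.3% and 26.6% of all genes. Between rt-PA+Acu and rt-PA 3 were called lower and 0 higher, a share close to the 17.7% of all genes called lower. The shuttle Rad23b (0.84 ± 0.10) and Nploc4, a cofactor of the unfoldase Vcp (0.84 ± 0.09), rose most in Model vs Sham, and Ubb, a polyubiquitin gene, rose by 0.61 ± 0.12. These were also the 3 genes lower with acupuncture, with log2 fold changes of -0.32 ± 0.11, -0.59 ± 0.13 and -0.42 ± 0.12. Ubqln2, another shuttle, fell by 0.22 in Model vs Sham (standard error 0.07, edgeR adjusted p = 0.0345).

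Of 11 tested genes of peptide loading and interferon signalling, 7 were called higher and 0 lower in Model vs Sham, against 27.3% and 26.6% of all genes, and 6 were called lower when acupuncture was added to rt-PA, against 17.7%. Irf1, a transcription factor that interferon induces, was at 6.20, 9.10 and 5.41 CPM in Sham, 17.9, 21.2 and 21.9 in Model, 18.6, 20.7 and 20.1 under rt-PA and 6.49, 6.63 and 9.48 under rt-PA+Acu. Model and rt-PA lay together and apart from Sham and rt-PA+Acu, with log2 fold changes of 1.56 ± 0.22 in Model vs Sham (edgeR adjusted p = 0.00054) and -1.39 ± 0.20 when acupuncture was added (edgeR adjusted p = 0.0031). Tap1, the transporter gene between Psmb8 and Psmb9, rose by 1.07 ± 0.31 (edgeR adjusted p = 0.0176) and differed by -1.20 ± 0.29 between rt-PA+Acu and rt-PA (edgeR adjusted p = 0.0178). Tap2, Tapbp, Erap1 and Nlrc5 were also called lower with acupuncture, and B2m, the light chain of class I molecules, was called in neither comparison.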

How the data were processed

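The data are RNA sequencing libraries of rat cerebral cortex, 3 in each of 4 groups taken from the deposited labels. Paired reads (150 bases each) were aligned by the authors to mRatBN7.2 using STAR 2.7.10a, and Salmon 1.9.0 counted them over Ensembl genes. The submitters' processing notes also name featureCounts 2.0.1. What the authors deposited is a table of whole-number counts per gene symbol, not normalized. The release of the annotation and the use of the molecular identifiers in the adapters are not given in the sources used here, so limits set by counts cover counting error alone.

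The tests used edgeR 4.0.16 and limma 3.58.1 under R 4.3.3. Genes passing filterByExpr were scaled by TMM, computed anew for the libraries of each comparison. Every comparison was a two-sided quasi-likelihood test on the 6 libraries concerned, with Benjamini-Hochberg adjustment over all genes tested. The CPM values used TMM factors from all genes of the 12 libraries together (0.9476 to 1.077). The study's second threshold is an absolute log2 fold change over 1. Alternatives were DESeq2 1.42.0, RLE factors, library size alone, a minimum of 1 count, 10 or more counts in each library, a single model of the 12 libraries, a block for replicate number, and each library left out in turn. The fit was also tested on simulated data. Figures were made with matplotlib 3.10.9 (Python 3.11.15). The members and lists were chosen with earlier results of these data known. Library values are printed for the catalytic subunits, their immunoproteasome counterparts Psmb8 and Psmb9, Psme1, Psme2, Psme4, Psmf1 and genes over 2-fold. They are also printed for the tested gene of each role with the largest change in Model vs Sham or rt-PA+Acu vs rt-PA. Psmc5, Psmd7, Psmd14 and the genes of the other lists were singled out after their values were seen.  No 2 libraries of a group agreed within sampling noise. Marker lists of neuron subtypes are not reported here.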

Additional observations from a re-analysis of the deposited data

How the results depend on the processing

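The count of proteasome genes called kept its direction under each alternative that called any. With a fold change over 2 as a further threshold, 1 gene was called in Model vs Sham, 3 were called for rt-PA vs Sham, and 0 between rt-PA+Acu and either rt-PA or Model. With 1 fit over all 12 libraries, 22 genes were called for rt-PA+Acu vs rt-PA and 4 for rt-PA+Acu vs Sham, and DESeq2 also called 4 in the latter; the cause was not tested. With 1 library left out, 28 to 32 genes were called in Model vs Sham and 28 to 31 for rt-PA vs Sham. The count was 3 to 22 for rt-PA+Acu vs rt-PA, 5 to 19 for rt-PA+Acu vs Model, 0 to 1 for rt-PA+Acu vs Sham and 0 for rt-PA vs Model. Over all genes it was 2496 to 5417 for rt-PA+Acu vs rt-PA and 2546 to 5257 for rt-PA+Acu vs Model. Where a group is left with 2 libraries, fewer samples enter the fit. The median log2 fold change in rt-PA vs Model turned from -0.04 to 0.0116 with library size alone. Over 1633 refitted values of 21 named genes, 36 changed sign, 0 of them called in either fit. Of the rest, 58 called values lost and 17 gained the call.

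The replicate numbers did not pair the libraries: correlations of same-numbered libraries ran from -0.25 to 0.15, and 3 of 18 exceeded 0.1. With the replicate block, 31 genes were called in Model vs Sham, 30 for rt-PA vs Sham, 7 for rt-PA+Acu vs rt-PA, 5 for rt-PA+Acu vs Model and 0 in the other two comparisons. The values of Psmb8, Psmb9 and Psmg4 rest on 6 to 183 counts in a library, and Psma8 and Psme1-ps1, with at most 12, were too low to test.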
